A study of Mus musculus with 2 samples.

Results

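Heme is built in a chain of enzymatic steps that starts and ends in the mitochondrion, and it is opened by heme oxygenases. Aminolevulinate synthase makes the first committed intermediate and is the step that heme itself represses in most tissues. The later enzymes assemble, decarboxylate and oxidise the porphyrin ring, and ferrochelatase inserts iron. In the adrenal gland the cytochrome P450 enzymes of steroid synthesis carry heme. The genes described here are 7 of synthesis (Alas1, Alad, Uros, Urod, Cpox, Ppox, Fech) and 2 of breakdown (Hmox1, Hmox2). They were chosen by gene name in both deposited tables, and all 9 were found, of 17707 annotated genes with a read in either library. The erythroid first-step gene Alas2 is not among them and stands beside them for comparison.

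The series is long-read RNA sequencing of whole adrenal gland from female mice of the F1 hybrid B6CASTF1/J, aged 18 to 20 months, from 1 µg of total RNA per library. It holds 1 group of 2 libraries, numbered as biological replicates 1 and 2, with no treatment and no other group. The labels name mouse 03 for replicate 1, and both 03 and 04 in different fields for replicate 2, under a shared donor entry. It is therefore not settled that the libraries came from separate animals. Binomial and Fisher's tests between them weigh counting error only. Technical and biological differences between the libraries cannot be told apart.

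Replicate 1 held 1412947 reads on annotated genes and replicate 2 held 933963. Levels are given as CPM, each gene's reads scaled to a common total of gene reads. A long read stands for 1 molecule, so levels were set side by side between genes without division by length, although long transcripts are read in full less often. A count of 0 allows up to 3 reads, which is 2.12 CPM in replicate 1 and 3.21 CPM in replicate 2. Intervals are exact 95% intervals (Poisson for levels, Clopper-Pearson for shares) and cover counting error only. The cortex markers Cyp11a1, Cyp11b1, Cyp21a1 and Star had between 11712 and 28821 reads in each library. Red cell RNA was present as globin mRNA, with 1332 and 746 reads of Hba-a1 in replicates 1 and 2, while the erythroid precursor markers Slc4a1, Epb42, Ahsp and Gata1 had 0 reads in both. Of the skeletal muscle markers, Acta1 had 333 reads and Ckm had 240 in replicate 1, against 0 reads of either in replicate 2. Marker sums of adipocytes were 5772 CPM in replicate 1 and 4290 CPM in replicate 2, with Ucp1 at 2384 and 562 reads in the same order. Those of chromaffin cells were 11990.5 CPM in replicate 1 and 9406 CPM in replicate 2, with 4 of 5 genes higher in replicate 1. The 6 cortex markers summed to 73150 CPM in replicate 1 and 72865 CPM in replicate 2. Of these, Star (replicate 1 over replicate 2, 0.681), Nr5a1 (0.657) and Cyp21a1 (0.889) were higher in replicate 2. Cyp11b1 (1.54) and Cyp11a1 (1.06) were higher in replicate 1, and Hsd3b1 stood at 0.995. The part of these other cell types in the differences between libraries was not tested. In RNA of a whole gland, fewer cells of a type and less RNA per cell cannot be told apart.

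The sequences that mark the splice choices described below were taken from the GENCODE M21 transcripts (GRCm38, all on the minus strand). For exon 2 of Alas1 the first pair shows the intron end and exon start at the annotated acceptor, chr9:106246969-106246998, and at an unannotated acceptor upstream of it, chr9:106247122-106247151, with the AG of each acceptor in capitals.
Alas1 annotated acceptor: catcacggactcttctacAGgatccaagac
Alas1 upstream acceptor: gagggtttctgtaaaggtAGagaatgaaga
For exon 3 of Alas1 the pair shows the junction with exon 2 at acceptors that lie 3 bases apart, chr9:106243381-106246773 and chr9:106243378-106246773 with the intron left out, with the bases after the junction in capitals.
Alas1 main exon 3: ctccagccaatgagaAAGAGAAAACTGCCA
Alas1 short exon 3: ctccagccaatgagaAGAAAACTGCCAAGG
For Uros the next pair shows how different first exons join the same second exon, chr7:133702455-133709023 and chr7:133702455-133708938 with the intron left out, with the bases of exon 2 in capitals.
Uros-201: atcctcgggtctgagGAACAGTCTGAGATC
Uros-203: ctcttagcccgcgagGAACAGTCTGAGATC
The last pair shows the end of Uros exon 7 running into exon 8 when spliced, chr7:133690579-133691100, and into intron 7 when the intron is kept, chr7:133691071-133691100, with the bases after the exon end in capitals.
Uros spliced: tgctcaaggacaaagGGATCCCCATGGAAA
Uros intron 7 kept: tgctcaaggacaaagGTGACTAGAATTAGC

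Levels along the pathway were uneven, with the first step far above all later ones. Alas1, the gene of housekeeping aminolevulinate synthase, had 1985 reads in replicate 1 and 1187 in replicate 2, or 1338 ± 94.7 CPM (mean ± SD, n = 2). It ranked 63 by mean CPM among all annotated genes with reads. Its mean was 8.10 times that of Alad, the next highest, and the ratio was 7.27 in replicate 1 and 9.27 in replicate 2. Alad encodes the cytosolic enzyme that joins aminolevulinate molecules into porphobilinogen, and it had 273 reads in replicate 1 and 128 in replicate 2 (165 ± 39.7 CPM). The 9 genes together made up 0.206% of annotated reads for replicate 1 and 0.189% for replicate 2, of which Alas1 held the larger part.

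The middle steps were the lowest of synthesis. Uros, which closes the porphyrin ring, had 43 reads in replicate 1 and 37 in replicate 2, or 35.0 ± 6.49 CPM. Urod, which removes carboxyl groups from the side chains, stood above it with 155 reads in replicate 1 and 118 in replicate 2 (118 ± 11.8 CPM). Of the enzymes that act next at the mitochondrion, Cpox had 45 reads in replicate 1 and 29 in replicate 2 (31.4 ± 0.564 CPM). Ppox had 40 reads in replicate 1 and 50 in replicate 2 (40.9 ± 17.8 CPM). Fech, the ferrochelatase gene, had 210 reads in replicate 1 and 115 in replicate 2 (136 ± 18.0 CPM). Uros, Cpox and Ppox were thus the low steps, and Urod and Fech stood between them and Alad.

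On the breakdown side the constitutive oxygenase was higher than the inducible one. Hmox2 had 126 reads in replicate 1 and 83 in replicate 2, or 89.0 ± 0.217 CPM. Hmox1, the stress-induced form, had 32 reads in replicate 1 and 22 in replicate 2 (23.1 ± 0.642 CPM), and it was the lowest of the 9 in both libraries. Macrophages are a known site of Hmox1 expression; their 10 marker genes summed to 355 CPM in replicate 1 and 444 CPM in replicate 2, 2 of them had 0 reads in both, and their part in the Hmox1 level was not tested. The intervals of the oxygenases did not overlap in either library, at 74.3 to 106 CPM for Hmox2 and 15.5 to 32.0 CPM for Hmox1 in replicate 1, and at 70.8 to 110 CPM for Hmox2 and 14.8 to 35.7 CPM for Hmox1 in replicate 2.

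**Figure D1:**
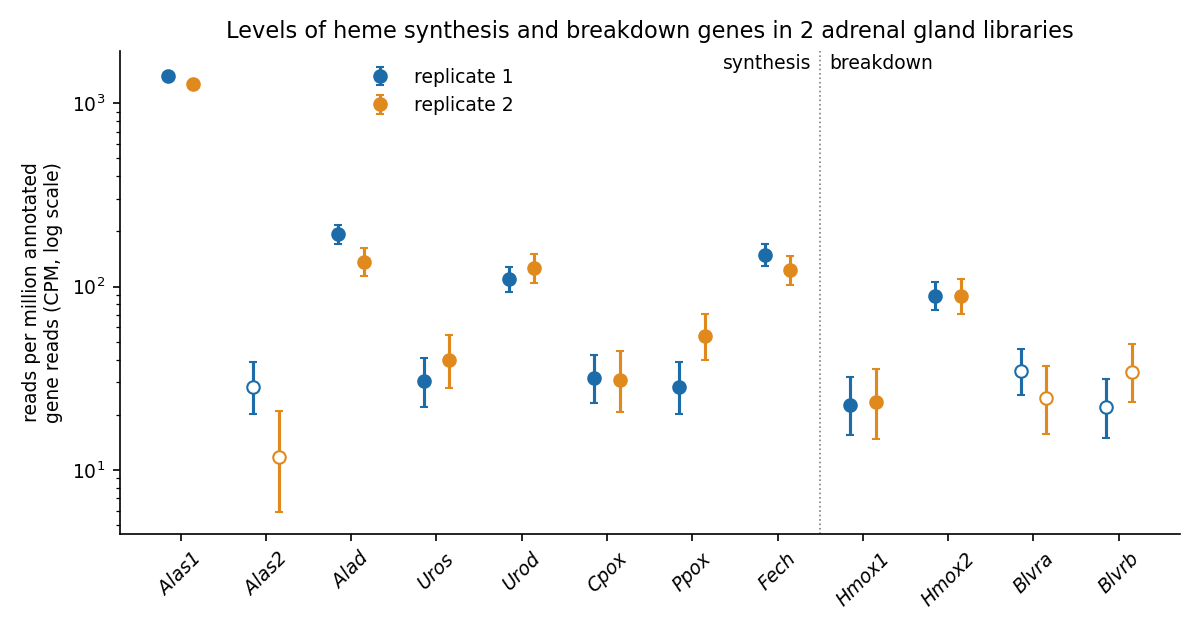
Level of each gene in CPM (log axis) in the order of the pathway, replicate 1 left of replicate 2, with exact 95% Poisson intervals. Filled points are the 9 described genes and open points Alas2, Blvra and Blvrb. Alas1 stands at 1405 CPM in replicate 1 and 1271 CPM in replicate 2, and the next highest, Alad, at 193 CPM and 137 CPM in the same order.

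By mean level the order was Alas1, Alad, Fech, Urod, Hmox2, Ppox, Uros, Cpox and Hmox1. Neighbours kept their order in both libraries for Alas1 over Alad, Alad over Fech, Urod over Hmox2, Hmox2 over Ppox and Cpox over Hmox1. Of these, the intervals of Alas1 and Alad and of Hmox2 and Ppox were apart in both libraries. Those of Alad and Fech were apart in replicate 1 and overlapped in replicate 2, and those of the other pairs overlapped in both. The order of Fech and Urod, of Ppox and Uros, and of Uros and Cpox differed between the libraries.

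The 2 libraries were compared gene by gene with an exact binomial test after TMM scaling, which tells libraries apart and not conditions. Ratios are replicate 1 over replicate 2. Of the 9 genes, 3 passed an adjusted p of 0.05 over 11068 genes tested, where 12.4% of all genes passed. Alas1 was higher in replicate 1, at 1405 CPM against 1271 CPM in replicate 2, a ratio of 1.13 (interval 1.05 to 1.22, adjusted p 0.0104). Alad was also higher in replicate 1, at 193 CPM against 137 CPM in replicate 2, a ratio of 1.44 (interval 1.16 to 1.79, adjusted p 0.00731). Genes called higher in replicate 1 made up 6.21% of those tested.

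Ppox went the other way, at 28.3 CPM in replicate 1 and 53.5 CPM in replicate 2, a ratio of 0.541 (interval 0.348 to 0.836, adjusted p 0.0337). Genes called higher in replicate 2 made up 6.2% of those tested. The other 6 genes did not pass, with ratios between 0.786 for Uros (interval 0.494 to 1.25) and 1.23 for Fech (interval 0.979 to 1.56). For Hmox2 the interval was 0.772 to 1.37 and for Hmox1 it was 0.554 to 1.78. With ERCC scaling 3 of the 9, Alas1, Alad and Fech, were higher in replicate 1 and 0 in replicate 2. Of all 11068 genes tested, that scaling called 2210 higher in replicate 1 and 261 in replicate 2. The median log2 ratio of the 9 genes was 0.04, against 0.02 over all genes tested.

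None of the 9 genes passed edgeR's exact test, which adds a common spread between the libraries to counting error. That spread was estimated from the same 2 libraries that are compared, so the test cannot decide whether a call holds. With the common dispersion of edgeR's exact test, a coefficient of variation of 21.5%, 0 of the 9 genes passed, where 0.244% of all genes did, and 0 of 9 had an unadjusted p under 0.05. With reads of annotated transcripts alone, 0 of 9 passed the binomial test, with 0 of 9 at an unadjusted p under 0.05, and the log2 ratio of Ppox was -0.40 there (adjusted p 0.664).

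**Figure D2:**
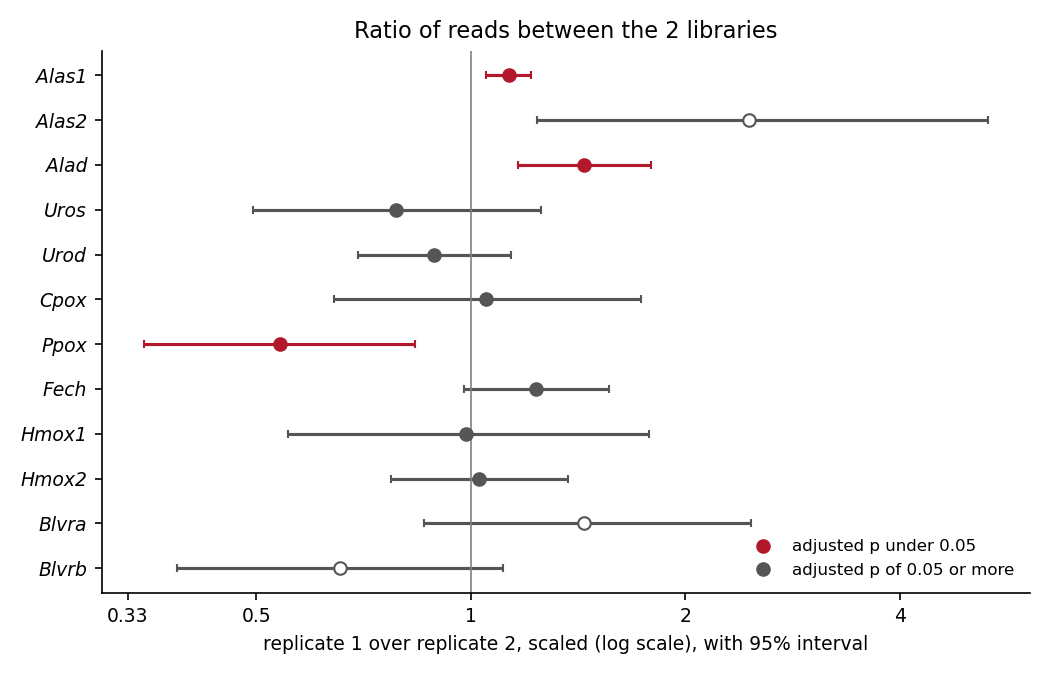
Ratio of reads in replicate 1 over replicate 2 after TMM scaling (log axis) with exact 95% intervals, in pathway order. Filled points are the 9 described genes, open points Alas2, Blvra and Blvrb, and red marks an adjusted p under 0.05. Alas1 and Alad lie to the right of 1 and Ppox to the left.

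The rest of the heme pathway was taken from lists of 85 genes, of which 81 were tested. Of these, 18 were higher in replicate 1, 5 in replicate 2, and 58 did not pass. The median log2 ratio of the 81 was 0.16, against 0.02 over all genes. Over all genes tested, 6.21% were called higher in replicate 1 and 6.2% in replicate 2. As the test weighs counting error only, deeper genes were called more often, and these shares include genes with as few as 10 reads. Among 6491 genes with at least 50 reads, 675 were higher in replicate 1 and 635 in replicate 2. Of the 64 other heme genes that deep, 20 were higher in replicate 1 and 5 in replicate 2. The counts of each list below were not matched for depth. Scaled by ERCC spike-in totals, 36 of the 81 were higher in replicate 1 and 1 in replicate 2. That scaling moves the median log2 ratio of all genes to 0.33. It called 2210 of all 11068 genes higher in replicate 1 and 261 in replicate 2. Alas2, with 40 reads in replicate 1 and 11 in replicate 2, did not pass (adjusted p 0.0504). The globin genes Hba-a1 (ratio 1.21) and Hbb-bt (ratio 1.63) were higher in replicate 1, and Hba-a1 and Hba-a2 are so alike that the split of their reads is uncertain. The part of red cells in the values of Alad was not tested.

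Genes that feed the first step were higher in replicate 1 in 3 of 8 cases. These were Sucla2 (ratio 1.64) and Suclg1 (ratio 1.27), subunits of the ligases that interconvert succinate and succinyl-CoA, and Dld (ratio 1.32). The mitochondrial carrier gene Slc25a39 stood at 486 ± 34.0 CPM and did not pass. In bilirubin formation, 0 of 3 passed: Por, the electron donor of heme oxygenase, stood at 282 ± 19.2 CPM, Blvra at 29.7 ± 7.11 CPM and Blvrb at 28.1 ± 8.71 CPM. Their ratios lay between 0.655 for Blvrb (interval 0.386 to 1.11) and 1.44 for Blvra (interval 0.861 to 2.48). The biliverdin reductase genes were thus close in level to Hmox1.

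Of genes of heme and porphyrin transport, 13 of 16 were tested and 3 were higher in replicate 1: the lysosomal heme exporter gene Slc48a1 (ratio 1.21), Slc46a1 (ratio 1.77) and the haptoglobin gene Hp (ratio 1.66). The highest in level were Pgrmc1, at 914 ± 30.1 CPM, and Tspo, at 430 ± 22.3 CPM, and neither passed. In iron supply, the ferritin light chain gene Ftl1 (ratio 1.17) and the transferrin gene Trf (ratio 1.44) were the 2 of 12 that passed. Fth1 stood at 2465 ± 135 CPM and Aco1 at 392 ± 19.7 CPM, and neither passed.

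Genes listed under the assembly of iron-sulfur clusters, which mammalian ferrochelatase carries, were called in both directions. Of 13, Fdxr (ratio 1.46) and Hspa9 (ratio 1.16) were higher in replicate 1, whereas Fdx1 (ratio 0.372), Iscu (ratio 0.734) and Glrx5 (ratio 0.794) were higher in replicate 2. The other ferredoxin gene of the list, Fdx1l, stood at 23.3 ± 1.12 CPM and did not pass (ratio 1.09, interval 0.617 to 1.98). Whether the values of Fdx1 and Fdxr bear on cluster assembly was not tested. With ERCC totals the calls of Iscu (log2 ratio -0.12, adjusted p 0.129) and Glrx5 (log2 ratio -0.0063, adjusted p 1.00) were lost and that of Fdx1 held (log2 ratio -1.10). Of 11 genes of heme sensing and control, Clpx (ratio 1.52), whose product activates and also turns over aminolevulinate synthase, and Keap1 (ratio 1.42) were higher in replicate 1. The heme receptor gene Nr1d1 was higher in replicate 2 (ratio 0.578), a call lost with ERCC totals (adjusted p 0.183). Lonp1, a mitochondrial protease gene, stood at 3233 ± 129 CPM and Clpp at 89.0 ± 2.80 CPM, and neither passed. The makers of hemes a and c, Cox15 (112 ± 6.36 CPM), Hccs (48.7 ± 11.3 CPM) and Cox10 (15.5 ± 0.847 CPM), did not pass either.

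Among genes of heme proteins, those of steroid synthesis made up 5.76% of annotated reads for replicate 1 and 5.20% for replicate 2. Cyp11a1 (ratio 1.06), Cyp11b1 (ratio 1.54) and Cyp11b2 (ratio 1.51) were higher in replicate 1 and Cyp21a1 (ratio 0.889) in replicate 2, a direction that turned with scaling by ERCC spike-in totals (log2 ratio 0.16). Cyp11a1, of the first step of steroid synthesis, had the highest mean level of all genes, at 18880 ± 538 CPM. Of 10 other heme proteins, Sdhd (ratio 1.32) and the myoglobin gene Mb passed, the second with 31 reads in replicate 1 and 1 in replicate 2. The skeletal muscle markers Acta1 and Ckm had 333 and 240 reads in replicate 1 and 0 in replicate 2. The part of muscle RNA in the Mb difference was not tested. Cyc1 led the list at 719 ± 49.2 CPM, with Cat at 328 ± 41.5 CPM and Cycs at 316 ± 27.0 CPM, and these did not pass.

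Alas1 (chromosome 9, 106233455 to 106248654, minus strand) has 13 annotated transcripts, and its reads fell on 103 isoforms, of which 33 were in both libraries. The coding transcript Alas1-207, with 11 exons, held 1690 of 1985 reads in replicate 1 and 988 of 1187 in replicate 2, or 85.1% and 83.2%. Of 98 new spliced forms, 57 rested on 1 read. The 31 new forms seen in both libraries held 247 reads in replicate 1 and 153 in replicate 2.

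The most frequent new form of Alas1 had exon 2 lengthened at its start. It joined the usual end of exon 1 (106247785) to the upstream acceptor shown above (exon start 106247131), in place of the annotated one (106246978), and was otherwise spliced as Alas1-207. It had 79 reads in replicate 1 and 38 in replicate 2, or 3.98% and 3.20% of Alas1 reads. Counted over all forms that leave exon 1 at that donor, the upstream acceptor took 4.40% of 1863 reads in replicate 1 (interval 3.52 to 5.43%) and 3.49% of 1117 in replicate 2 (interval 2.49 to 4.74%). The intervals of the libraries overlap.

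The added stretch of 153 bases, chr9:106246979-106247131, lies wholly in the leader, since the start codon of Alas1-207 begins 21 bases after the annotated acceptor. It has a GC content of 49.7% and holds 5 ATG triplets. The 93 bases of leader in Alas1-201 hold 0. For the leader of Alas1-207, with its first exon of 870 bases, the number is not given here, so the new form is not compared with Alas1-207. Of the 5, 2 meet a stop codon in their own frame before the start codon of the enzyme, and the other 3 are read past it in another frame. In human cells a minor ALAS1 mRNA with extra leader sequence is also known.

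Other splice choices of Alas1 were rarer. The acceptor of exon 3 that lies 3 bases further in, shown above and annotated in Alas1-205, took 18 of 1904 reads in replicate 1 and 8 of 1145 in replicate 2, or 0.945% and 0.699%. As the shift is 3 bases, it keeps the reading frame by itself. In the annotated Alas1-205 as a whole, the frame ends after 196 codons, against 642 in Alas1-207. From intron 3 to intron 10 the acceptor of Alas1-207 took between 99.5% and 100% of reads in both libraries. Of the reads with an unannotated splice site, 32 of 142 in replicate 1 and 24 of 77 in replicate 2 had all their sites within 10 bases of an annotated one. A first exon upstream of the annotated gene (donor 106250946, 2292 bases before its start) had 1 read in replicate 1 and 4 in replicate 2.

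The most frequent forms of Alas1 that start within the gene were incomplete matches to the annotation. The first began with exon 2 and had 42 reads in replicate 1 and 22 in replicate 2. That exon's end is also the end of the first exon of the annotated Alas1-212. The next began at exon 3, with its start in intron 2, and had 21 reads in replicate 1 and 7 in replicate 2. By first exon, 94.0% of spliced Alas1 reads in replicate 1 and 94.2% in replicate 2 used the donor at 106247785.

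**Figure D3:**
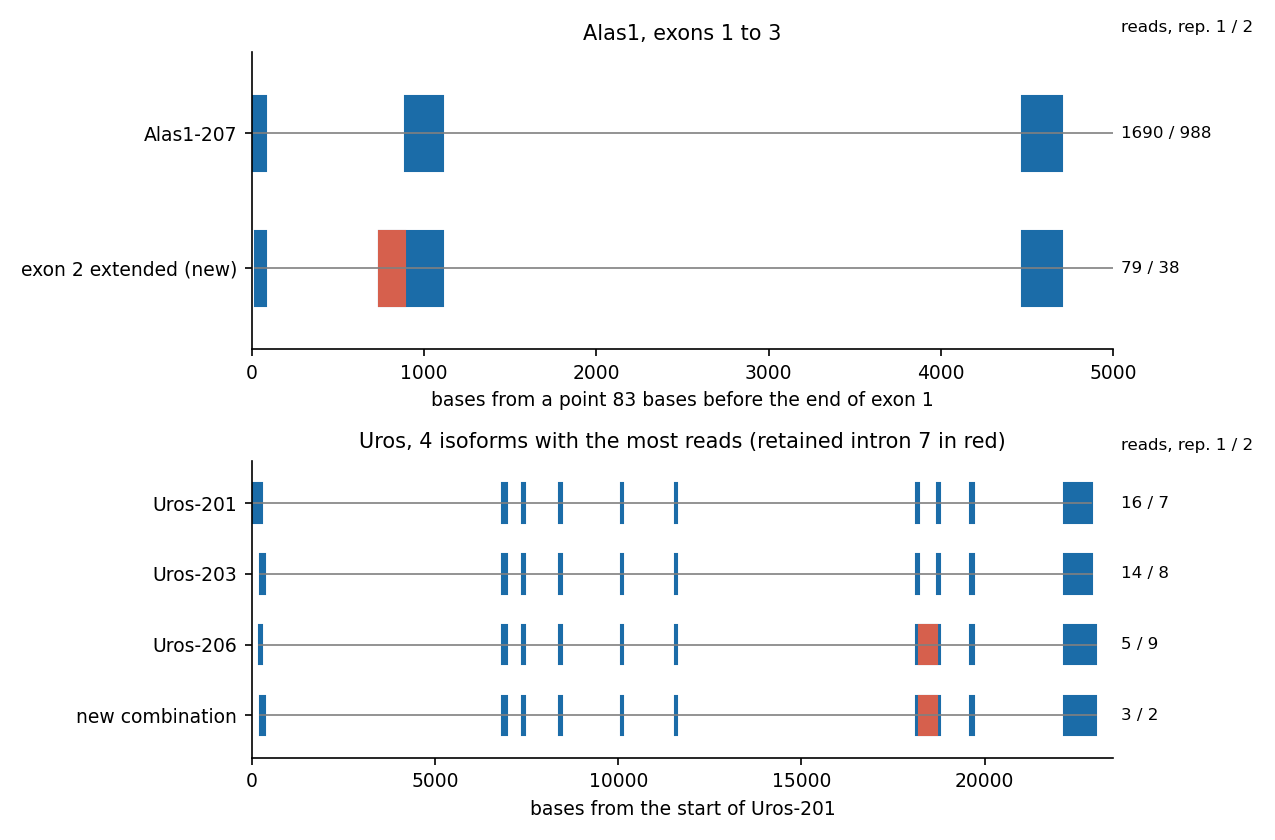
Exon maps drawn 5′ to 3′ and to scale in bases, with the reads of each isoform in replicates 1 and 2 at the right. Above, exons 1 to 3 of Alas1-207 (exon 1 shown in part) and of the form with the lengthened exon 2 (addition in red). Below, the 4 Uros isoforms with the most reads, which differ in the first exon and in intron 7 (kept intron in red); a model's outer ends are those of a single read or of the annotation.

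Uros (chromosome 7, 133686243 to 133710072, minus strand) had no dominant isoform. Uros-201 had 16 reads in replicate 1 and 7 in replicate 2, Uros-203 had 14 in replicate 1 and 8 in replicate 2, and Uros-206 had 5 in replicate 1 and 9 in replicate 2. Uros-201 and Uros-203 share the start codon in exon 2 and the same 265 codons, and differ in the first exon. The first-exon donor at 133709009 (Uros-201, Uros-206) took 55.8% of 43 spliced reads in replicate 1 and 60.0% of 35 in replicate 2. The donor downstream of it, at 133708924 (Uros-203), took 44.2% in replicate 1 and 28.6% in replicate 2. With 43 and 35 reads the shares of the first donor have intervals of 39.9 to 70.9% in replicate 1 and 42.1 to 76.1% in replicate 2. Reads that began with an exon ending at 133702330, used as a first exon by Uros-209 and Uros-210 and as an inner exon by others, numbered 0 in replicate 1 and 3 in replicate 2. Mouse Uros is known to have separate housekeeping and erythroid start sites.

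Intron 7 of Uros (chr7:133690594-133691085, 492 bases) was kept in many reads. It was kept in 9 reads and spliced in 31 in replicate 1 (22.5%, interval 10.8 to 38.5%), and kept in 15 and spliced in 17 in replicate 2 (46.9%, interval 29.1 to 65.3%). Introns 1 to 6 and 9 were kept in 0 reads in both libraries, and intron 8 in 0 in replicate 1 and 2 in replicate 2. The annotation holds this form as Uros-206, in which the frame of the enzyme ends after 160 of 265 codons. Both first exons occurred with the kept intron, Uros-206 with the first donor and a new combination, with 3 reads in replicate 1 and 2 in replicate 2, with the second.

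Ppox (chromosome 1, 171275990 to 171281186, minus strand) showed the same kind of form over several introns. Of reads that span an intron, 8 of 40 in replicate 1 (20.0%, interval 9.05 to 35.6%) and 22 of 48 in replicate 2 (45.8%, interval 31.4 to 60.8%) kept at least 1 intron. The kept introns were mainly 3, 4, 5 and 7 of 12. Intron 3 (132 bases) was kept in 3 reads and spliced in 26 in replicate 1, and kept in 14 and spliced in 24 in replicate 2. Intron 5 (294 bases) was kept in 3 and spliced in 29 in replicate 1, and kept in 15 and spliced in 29 in replicate 2. Introns 2, 6, 11 and 12 were kept in 0 reads in both.

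The annotation holds forms of Ppox that keep introns, although no read was assigned to them. In Ppox-206, which keeps introns 5 and 7, the frame stops after 175 codons, and in Ppox-207, which keeps introns 3, 4, 5, 7 and 10, after 81 codons, against 477 in Ppox-201. For intron 4, the first pair of lines below shows the spliced junction, chr1:171279987-171280154, and the end of exon 4 running into the intron, chr1:171280125-171280154, and the second pair shows the same for intron 5, chr1:171279560-171279883 and chr1:171279854-171279883, with bases after the exon end in capitals.
Ppox exon 4 to 5: accctccggcctcagGGGGCTACTCCGTCC
Ppox intron 4 kept: accctccggcctcagGTAACACCTCACTAT
Ppox exon 5 to 6: cgccttggacctgagGTGGCATCTTTAGCC
Ppox intron 5 kept: cgccttggacctgagGTGACATTGCTCAGA

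Against all genes, the kept introns of Uros and Ppox were high. Over reads of annotated coding genes that span an intron of the main transcript, 3.15% in replicate 1 and 5.10% in replicate 2 kept one, and the median over genes was 0% in replicate 1 and 0.837% in replicate 2. Of 5575 genes with at least 20 such reads in each library, 1.17% reached the share of Ppox in both libraries and 1.47% reached that of Uros, these genes included. No such share was seen in the rest of the pathway, where Alad had 1.47% in replicate 1 and 0.781% in replicate 2, Urod had 2.90% and 2.00% in the same order, Hmox2 had 0.800% and 3.66%, Cpox had 2.22% and 0%, and Fech and Hmox1 had 0% in both. For Fech, 0 of 203 and 0 of 108 reads in replicates 1 and 2 allow up to 1.80% and 3.36%, and for Hmox1, 0 of 30 and 0 of 19 allow up to 11.6% and 17.6%.

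Between the libraries, a two-sided Fisher's exact test on kept introns, adjusted over the 5575 genes, called 1 of the 8 genes measured (Hmox1 had 19 reads across an intron in replicate 2, under the 20 required), where 3.21% of all genes passed, with 0.323% higher in replicate 1 and 2.89% in replicate 2. The gene called was Alas1, with 13 of 1983 reads in replicate 1 (0.656%) and 43 of 1186 in replicate 2 (3.63%), at an adjusted p of 4.06e-07. In replicate 2 most of these reads kept intron 8 of Alas1-207 (1366 bases), 31 against 3 in replicate 1. In replicate 1 the intron kept most often was intron 4, in 5 reads. Ppox (adjusted p 0.228) and Uros (adjusted p 0.492) did not pass. This test was added after the data had been seen. Over all annotated genes, models of the authors' genomic class held 3.54% of reads in replicate 1 and 5.87% in replicate 2, and without incomplete and genomic models the kept intron share of Alas1 was 0.427% in replicate 1 and 3.03% in replicate 2 (adjusted p 3.92e-06). In that setting 41 of 5023 genes were called, against 179 of 5575.

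**Figure D4:**
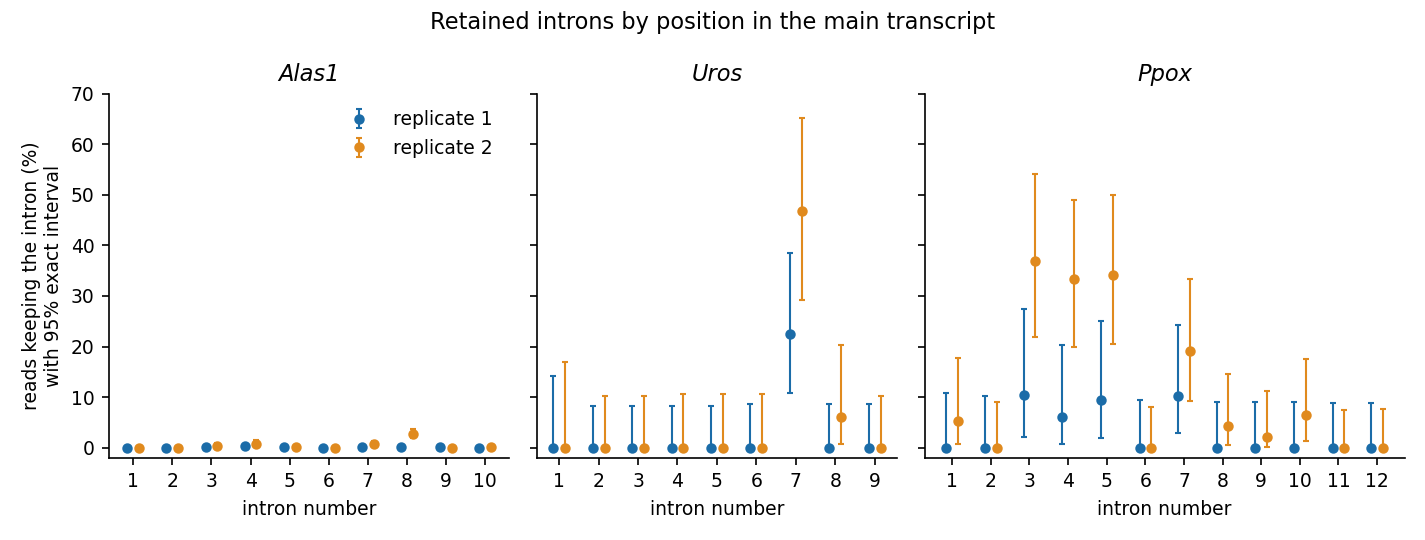
Share of reads that keep each intron of the main transcript of Alas1, Uros and Ppox, by intron number, replicate 1 left of replicate 2, with exact 95% intervals. In Uros the kept reads sit at intron 7, in Ppox at introns 3, 4, 5 and 7, and in Alas1 the highest point is 2.68% at intron 8 in replicate 2.

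Alad (chromosome 4, 62509169 to 62519918, minus strand) was often read without its first exon. Alad-201, with 12 exons, had 163 of 273 reads in replicate 1 (59.7%) and 84 of 128 in replicate 2 (65.6%). A form with exons 2 to 12 only had 78 reads in replicate 1 and 34 in replicate 2, or 28.6% and 26.6%. It was the most frequent incomplete form of any of the 9 genes. The start codon of Alad-201 is in exon 2, and its first exon of 59 bases is leader alone. The form with exons 2 to 12 thus includes each coding exon at least in part. Whether its reads reach the start codon was not tested. The other annotated first exon, that of Alad-202, had 4 reads in replicate 1 and 0 in replicate 2. Mouse Alad, like Uros, is known for housekeeping and erythroid first exons, and which of them the annotated ones are was not tested.

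Urod (chromosome 4, 116989965 to 116994413, minus strand) was read mostly as the 10-exon Urod-201, with 126 of 155 reads in replicate 1 (81.3%) and 89 of 118 in replicate 2 (75.4%). Single-exon models over its last exon of 484 bases had 17 reads in replicate 1 and 18 in replicate 2. Cpox (chromosome 16, 58670292 to 58717636, plus strand) was the most uniform, with Cpox-201 holding 43 of 45 reads in replicate 1 and 27 of 29 in replicate 2, and all 45 spliced reads in replicate 1 and 28 in replicate 2 had the same first-exon donor.

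Fech (chromosome 18, 64452914 to 64490251, minus strand) has 15 annotated transcripts, of which Fech-208, with a last exon of 5304 bases, held 161 of 210 reads in replicate 1 (76.7%) and 84 of 115 in replicate 2 (73.0%). Fech-203, annotated as a form with a kept intron, had 11 reads in replicate 1 and 9 in replicate 2. Its first exon starts inside an intron, and such reads, which do not span the intron, are not in the kept intron shares above. Exon 2, whose 124 bases are not a multiple of 3, was skipped in 7 of 173 reads in replicate 1 and 1 of 87 in replicate 2. Single-exon models of the genomic class had 7 reads in each library.

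Hmox1 (chromosome 8, 75093621 to 75100589, plus strand) was often read in part. Its 5-exon transcript Hmox1-201 had 22 of 32 reads in replicate 1 (68.8%) and 13 of 22 in replicate 2 (59.1%), and the other 10 reads in replicate 1 and 9 in replicate 2 were incomplete. The most frequent incomplete form began at exon 3, which leaves out the start codon in exon 1, with 6 reads in replicate 1 and 5 in replicate 2. Hmox2 (chromosome 16, 4726361 to 4766742, plus strand) overlaps Cdip1 on the other strand. Hmox2-201 held 101 of 126 reads in replicate 1 (80.2%) and 66 of 83 in replicate 2 (79.5%), with the first exon ending at 4726471 in 85.6% of spliced reads in replicate 1 and 87.7% in replicate 2. The first exons of Hmox2-202 and Hmox2-204 together had 2 reads in replicate 1 and 1 in replicate 2.

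No difference in isoform use between the libraries passed the test. Fisher's exact test on the share of the main isoform, adjusted over 6413 genes, called 0 of the 9 genes, and 0 of 9 had an unadjusted p under 0.05, where 2.21% of all genes were called. The widest gap was in Ppox, with Ppox-201 at 60.0% in replicate 1 and 40.0% in replicate 2, followed by Uros-201 at 37.2% in replicate 1 and 18.9% in replicate 2, with adjusted p of 0.536 and 0.532 in that order. Over all genes the median share of the main isoform was 74.6% in replicate 1 and 70.7% in replicate 2.

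By the authors' classes, annotated transcripts held 82.2% of the reads of the 9 genes in replicate 1 and 79.8% in replicate 2, against 77.2% and 73.2% over all annotated genes in the same order. Cpox was highest, at 95.6% in replicate 1 and 93.1% in replicate 2, and Ppox lowest, at 60.0% in replicate 1 and 40.0% in replicate 2. Incomplete matches were most frequent in Hmox1 (31.2% in replicate 1 and 40.9% in replicate 2) and Alad (31.9% and 28.9%), and new combinations of known sites in Ppox (12.5% and 32.0%). New sites held 5 Ppox reads in each library, and in Alas1 7.15% of reads in replicate 1 and 6.49% in replicate 2.

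**Figure D5:**
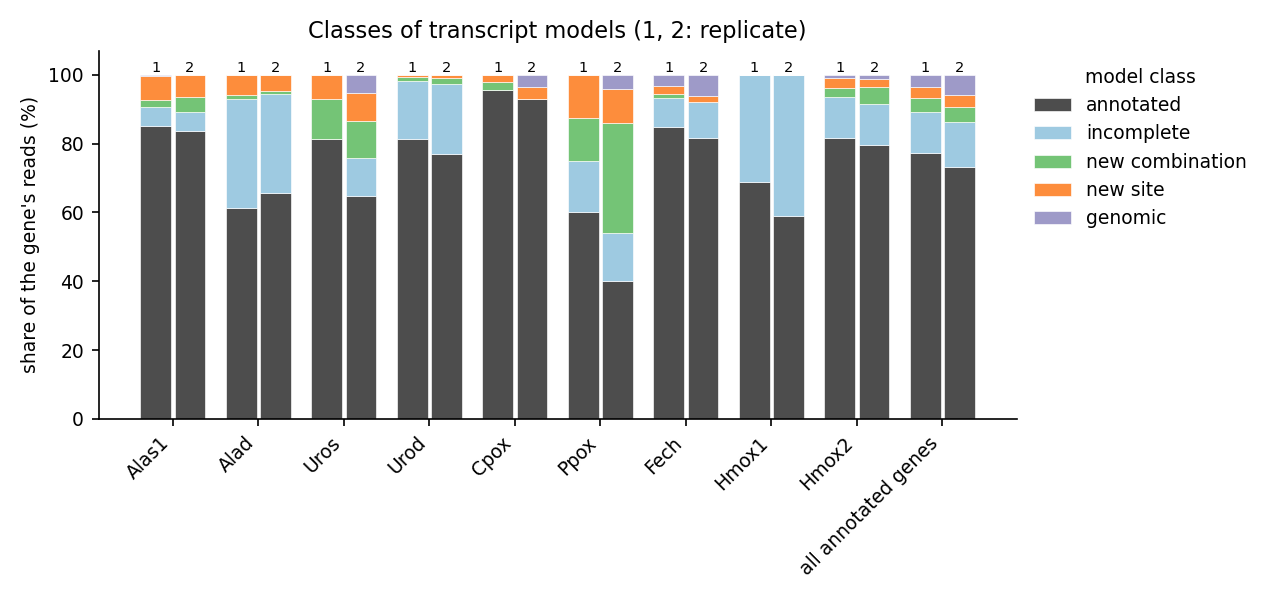
Share of each gene's reads by model class in replicate 1 (left bar) and replicate 2 (right bar), beside all annotated genes. Annotated models make up most reads of each gene except Ppox in replicate 2, where they hold 40.0%, and the blue incomplete part is widest in Alad and Hmox1.

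At the same loci, same-strand models of other genes overlapped exons of the 9 genes with 0 reads, apart from 1 read at Alad in replicate 1. Opposite-strand reads were given to Cdip1 at Hmox2, 114 in replicate 1 and 62 in replicate 2, and to B4galt3 at Ppox, 31 in replicate 1 and 15 in replicate 2. New models opposite the 9 genes had at most 2 reads in a library, below the 3 that a count of 0 allows.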

How the data were processed

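Long-read RNA sequencing of adrenal gland was deposited as 2 libraries, with a transcript table and transcript models for each. The authors deposited raw read counts per transcript model on mm10, per the file headers, with each model classed as annotated, incomplete, a new combination of known splice sites, with a new splice site, or genomic. Models with at least 1 read were listed, and how reads were aligned and filtered is not given in the sources used here. Model ends are those of the annotation or of a single read, so first exons were told apart by donor site and exact start positions were not analysed. An alternative count of first exons took only models that start within 200 bases of an annotated start.

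Counts were summed per gene and scaled to CPM of annotated gene reads. Genes reaching 10 reads in the 2 libraries combined were compared with a two-sided exact binomial test after TMM scaling (edgeR 4.0.16, R 4.3.3), with Benjamini-Hochberg adjustment. Having 1 group, the series allows no test of a condition. Main isoform shares and kept introns were compared with Fisher's exact test in genes reaching 20 reads in both libraries singly. DESeq2 1.42.0 gave alternative size factors. Python 3.11.15, scipy 1.17.1, pandas 2.3.3, numpy 2.4.6 and matplotlib 3.10.9 were used, and the scripts were tested on simulated data. Models of the libraries were matched by their splice sites, and exon structure came from GENCODE M21. All 9 genes were named, with isoforms above 5% of a gene's reads, and of each other list the 4 genes highest in level and those past the threshold. Some genes of these lists are counted but not reported here by name. The genes and lists were chosen with earlier results of these data known.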

Additional observations from a re-analysis of the deposited data

How the results depend on the processing

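No paired analysis was possible because the series has 1 group, so replicate numbers pair nothing. The sum of the 9 genes was 1976 CPM, between 1894 and 2059 CPM when either library was left out, and 2128 CPM with annotated transcripts alone. Of the 9 genes, 3 differed between the libraries, against 0 with annotated transcripts alone and 0 with edgeR's exact test. Of the other heme genes, 23 differed, against 37 when scaled by ERCC spike-in totals and 0 with edgeR's exact test. In edgeR's test 2 of 81 had an unadjusted p under 0.05, and its spread came from the same 2 libraries. ERCC scaling moves the median log2 ratio of all genes to 0.33. Of all 11068 genes tested, 1373 differed, against 2471 with ERCC totals and 27 with edgeR's exact test. The median main isoform share of 74.9% became 89.6% without incomplete and genomic models, and the median lead first exon share of 82.6% became 99.0% with annotated transcripts alone. The Ppox call was lost with ERCC totals (adjusted p 0.203), with no minimum count (0.0537) and with equal depth (0.219), and the Alas1 call with total counts (0.0519). Fech passed with ERCC totals, at a log2 ratio of 0.63 (adjusted p 0.00146). Signs turned for Urod with ERCC totals (0.16), for Hmox1 with ERCC totals (0.30) and annotated transcripts alone (0.086), for Hmox2 with annotated transcripts alone (-0.029) and equal depth (-0.21), and for Cyp21a1 with ERCC totals (0.16). The kept intron call of Alas1 held with at least 10 reads and without incomplete and genomic models, alternatives chosen after seeing the data. The causes were not tested. At 22 to 50 reads in a library, as for Uros, Cpox, Ppox and Hmox1, intervals of a share were wide.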
